A study of Mus musculus with 10 samples.

Results

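The 10 keratin genes described here, of 17864 genes in the count table, were taken by name for the part of the epithelium they mark. Krt7, Krt8, Krt18 and Krt19 are the 4 luminal keratins, Krt5, Krt14, Krt15 and Krt17 the 4 basal keratins, Krt6a is a keratin of stressed and wounded epithelium, and Krt80 is a widely expressed epithelial keratin. The rule that picks them uses gene names and no measured value, but it was written with earlier results of these data known. RNA of whole tumors was sequenced from 5 tumors of sgCon cells and 5 tumors of sgTaz cells. Both are 4T1 cells, a mouse mammary carcinoma line used as a model of triple-negative breast cancer, that received Cas9 expression constructs, in sgCon with a control guide RNA and in sgTaz with 1 guide RNA against Wwtr1, the gene of the transcriptional co-activator TAZ. By the methods, cells were injected into mammary fat pad number 4 of female mice 6 to 8 weeks old, SCID or BALB/c; which of these hosts gave the sequenced tumors, and whether the cells were a pool or a clone, is not stated in the sources used here. The labels do not say that replicates came from separate mice, so that p-values measure the spread between these tumors.

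Keratins build the intermediate filaments of epithelial cells. A filament needs partners of both families, an acidic type I keratin such as Krt14, Krt15, Krt17, Krt18 or Krt19 and a basic type II keratin such as Krt5, Krt6a, Krt7, Krt8 or Krt80, and a keratin without a partner is usually degraded. Krt8 and Krt18 pair in simple epithelium and in the luminal cells of the mammary gland, where Krt7 and Krt19 are also found. Krt5 and Krt14 pair in basal cells of stratified epithelium and in mammary myoepithelium, and Krt6a and Krt17 appear in wounded, activated and many carcinoma cells. Of the 10 genes, 9 passed the filter on low counts and were tested between the groups. In all 9 the mean was lower in sgTaz tumors, where 53% of all genes tested were lower. The difference was widest in relation to its error for Krt14, with a level 2.22-fold lower. No member passed the adjusted test of edgeR, which called 0% of all genes tested as lower and 0.00675% as higher.

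The genes lie in the keratin clusters of the mouse genome, given here in the mm10 build with the GENCODE M21 annotation. On chromosome 11 lie Krt15 (100131758 to 100135928), Krt19 (100140810 to 100148665), Krt14 (100203162 to 100207548) and Krt17 (100256217 to 100261029), all on the minus strand. On chromosome 15 lie Krt80 (101347444 to 101370162), Krt6a (101689910 to 101694307), Krt5 (101707070 to 101712898) and Krt8 (101996698 to 102004482) on the minus strand, and Krt7 (101411043 to 101430313) and Krt18 (102028180 to 102032027) on the plus strand. Krt18 is the type I keratin that lies outside the type I cluster, next to its partner Krt8. Sequences of 300 bases around the start of transcription (250 before and 50 after) were available from RefSeq (GRCm38.p6) for 5 members, Krt5, Krt7, Krt8, Krt14 and Krt18. Those of Krt8 and Krt18 are shown because these neighbours moved together across tumors, and that of Krt14 because it had the widest difference in relation to its error. Each reads 5′ to 3′ on the strand of its gene, and capitals mark matches to motifs searched on both strands, of which 1 kind was found in Krt8 and 1 in Krt14.
Krt8, chr15:102004293-102004592, minus strand: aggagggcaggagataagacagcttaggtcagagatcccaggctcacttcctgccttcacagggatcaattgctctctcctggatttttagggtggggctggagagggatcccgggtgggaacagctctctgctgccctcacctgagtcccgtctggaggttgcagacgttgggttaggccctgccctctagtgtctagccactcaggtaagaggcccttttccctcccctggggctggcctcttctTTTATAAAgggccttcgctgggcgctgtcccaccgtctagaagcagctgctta
Krt18, chr15:102027966-102028265, plus strand: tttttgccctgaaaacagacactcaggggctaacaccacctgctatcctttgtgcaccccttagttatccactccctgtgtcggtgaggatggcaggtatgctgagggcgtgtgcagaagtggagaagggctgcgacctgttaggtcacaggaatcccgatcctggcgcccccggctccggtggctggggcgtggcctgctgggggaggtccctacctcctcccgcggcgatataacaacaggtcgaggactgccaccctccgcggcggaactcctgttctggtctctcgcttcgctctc
Krt14, chr11:100205981-100206280, minus strand: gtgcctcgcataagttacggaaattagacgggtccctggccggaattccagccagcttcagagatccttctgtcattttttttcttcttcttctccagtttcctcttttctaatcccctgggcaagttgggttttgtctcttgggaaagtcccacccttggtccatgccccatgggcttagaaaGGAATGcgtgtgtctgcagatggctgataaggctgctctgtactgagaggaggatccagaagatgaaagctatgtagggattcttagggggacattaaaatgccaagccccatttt
The capitals in Krt8 are 2 overlapping matches to the TATA motif TATAAA, the first of them on the opposite strand. These matches begin 3 and 1 bases before the start and run across it, and that start lies 140 bases inside the GENCODE gene. Of 32851 windows of this length, 13.6% held the TATA motif. In Krt14 the capitals are GGAATG, the opposite strand of the TEAD motif CATTCC, 66 bases before the start, which 14.7% of the windows held. TEAD factors are the DNA-binding partners of TAZ. The start of the Krt14 window is that of the shorter GENCODE transcript, 1518 bases inside the gene, so that the window is not that of the full-length transcript. In Krt18 neither these letters nor the AP-1 motif TGANTCA (7.81% of the windows) nor the Sp1 and KLF motif GGGCGG (35.7%) occurred. These are matches of letters only.

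The 5 sgCon libraries held 14753922 to 19595821 counts and the 5 sgTaz libraries 12185383 to 18395558. In them 3 counts correspond to between 0.153 and 0.246 CPM (counts scaled to a normalized library total, by TMM), which covers counting error only. Wwtr1 was checked first, since the guide RNA targets it. Its level in sgCon tumors 1 to 5 was 192.2, 181.3, 114.5, 171.4 and 156.1 CPM, and in sgTaz tumors 1 to 5 it was 86.6, 103.7, 109.9, 139.0 and 101.6 CPM. The log2 fold change was -0.59 (SE, the standard error, 0.15; adjusted p = 0.0960, edgeR's quasi-likelihood test; exact two-sided permutation test, p = 0.0159), with sgTaz tumor 4 above sgCon tumor 3. Its homologue Yap1 had 155.1 ± 24.8 CPM (SD, n = 5) in sgCon and 190.4 ± 22.0 CPM (SD, n = 5) in sgTaz tumors. Epithelial and mesenchymal markers were both present, with Epcam between 117.0 and 623.6 CPM and Vim between 1765 and 2392 CPM in the 10 tumors, and macrophage, fibroblast and endothelial genes were measured in every tumor, so that the values are those of tumor tissue and not of tumor cells alone. In such bulk tissue, fewer cells of a type and less RNA per cell cannot be told apart. Libraries that stood apart were sgTaz tumor 5, with 171.7 CPM summed over 7 B cell genes against 7.56 to 20.6 CPM in the remaining sgTaz tumors, and sgCon tumor 3, with 806.5 CPM against 64.7 to 375.5 CPM in the other sgCon tumors. Values without 1 of them are given for several keratins below.

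Per kilobase of exon, Krt18 and Krt8 were the most abundant keratins. In sgCon tumors their means were 653.8 ± 191.4 and 473.8 ± 132.2 CPM per kilobase (SD, n = 5), followed by Krt14 at 77.6 ± 15.9, Krt7 at 61.5 ± 27.0, Krt19 at 41.1 ± 16.4 and Krt17 at 8.12 ± 2.57. Krt18 was above Krt8 in 5 of 5 tumors of each group, although the ranges overlapped, and Krt8 was above the next keratin without overlap in both groups. The order of Krt14 and Krt7 was not fixed: Krt14 was the higher in 4 of 5 sgCon tumors and Krt7 in 5 of 5 sgTaz tumors, and with the length of the principal transcript in place of all exons, an alternative chosen after seeing the data, Krt7 was at 105.9 CPM per kilobase and above Krt14 in 4 of 5 sgCon tumors. Krt5, Krt80, Krt15 and Krt6a were all below Krt17 in the mean, at 6.23, 1.31, 0.653 and 0.228 CPM per kilobase in sgCon tumors. Krt8 and Krt18 together made up 85.1 ± 2.1% (SD, n = 5) of the summed level of the 10 keratins in sgCon and 88.6 ± 2.7% in sgTaz tumors. Krt14 made up 4.92 to 7.39% in sgCon and 2.07 to 5.01% in sgTaz tumors. The type I sum over the type II sum was 1.44 ± 0.13 (SD, n = 5) in sgCon and 1.31 ± 0.12 in sgTaz tumors, with ranges that overlapped (1.30 to 1.60 and 1.20 to 1.51). The tumors thus held mainly luminal keratin RNA, with Krt14 as the main basal keratin.

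**Figure D1:**
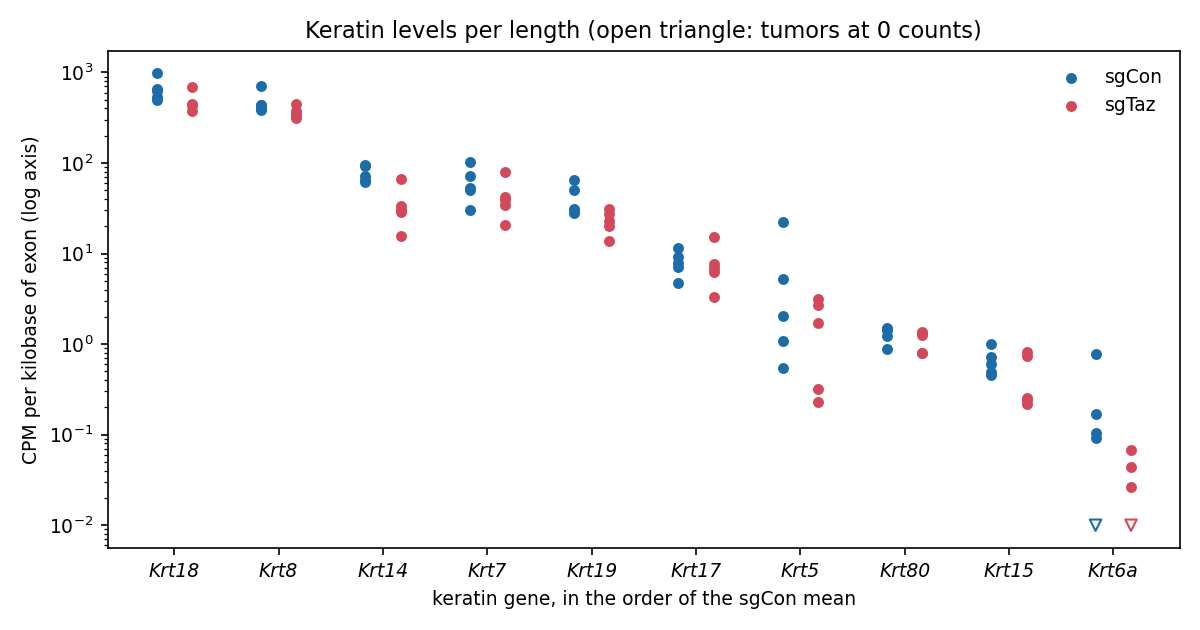
Level of each keratin in each tumor, as CPM per kilobase of exon on a log axis, with sgCon tumors in blue and sgTaz tumors in red; an open triangle stands for tumors at 0 counts. Krt18 and Krt8 lie above the other 8 genes, and Krt6a is lowest.

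Of the luminal keratins, Krt8 and Krt18, the partners of simple epithelium, had lower values in 4 of the 5 sgTaz tumors. Krt8 in sgCon tumors 1 to 5 was at 1383, 859.4, 749.2, 857.2 and 789.6 CPM, and in sgTaz tumors 1 to 5 at 618.9, 886.1, 678.6, 728.8 and 640.8 CPM. All sgTaz tumors other than tumor 2 were thus below every sgCon tumor, and sgCon tumor 1 was far above the rest. Its log2 fold change was -0.38 (SE 0.17, p = 0.0430, adjusted p = 0.214, edgeR; exact permutation test, p = 0.0714), and it was -0.20 without sgCon tumor 1. Krt18 was at 1405, 762.3, 711.9, 931.8 and 887.0 CPM in sgCon tumors and at 544.2, 991.7, 641.4, 623.1 and 627.3 CPM in sgTaz tumors, in the same order of numbers. Again sgTaz tumor 2 alone was among the sgCon tumors, above 4 of them. The log2 fold change of Krt18 was -0.45 (SE 0.20, p = 0.0471, adjusted p = 0.224, edgeR; exact permutation test, p = 0.0714), -0.26 without sgCon tumor 1 and -0.63 without sgTaz tumor 2. For Krt8, 29.7% of the 50-base stretches of its transcripts also occur in other genes, among them the pseudogene Krt8-ps, and how reads matching several places were counted is not stated in the sources used here.

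Krt19, the smallest keratin and a marker of simple and luminal epithelium, showed the widest fold of the luminal group. Its sgCon values were 121.7, 57.7, 56.0, 52.2 and 94.0 CPM and its sgTaz values 25.8, 57.7, 50.3, 37.8 and 42.2 CPM. Again 4 sgTaz tumors were below every sgCon tumor, while sgTaz tumor 2 matched sgCon tumor 2. The log2 fold change was -0.83 (SE 0.27, adjusted p = 0.129, edgeR; exact permutation test, p = 0.0317), a level 1.78-fold lower, and it lay between -0.97 and -0.60 with each tumor left out in turn. DESeq2, the tool of the study, gave an adjusted p of 0.0358 for Krt19, while limma-voom gave 0.0533. Krt7, a keratin of glandular ducts, was at 717.8, 352.1, 214.6, 372.8 and 511.1 CPM in sgCon and at 146.5, 560.0, 277.5, 241.6 and 298.5 CPM in sgTaz tumors, with wide overlap. Its log2 fold change was -0.51 (SE 0.36, adjusted p = 0.426, edgeR; exact permutation test, p = 0.254), and the difference was smaller than the spread. It rested on single tumors, at -0.25 without sgCon tumor 1, -0.33 without sgTaz tumor 1 and -0.85 (adjusted p = 0.147) without sgTaz tumor 2, and was -0.67 (adjusted p = 0.115) with limma-voom. Without sgCon tumor 3 it was -0.67 (SE 0.33, adjusted p = 0.303, edgeR).

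**Figure D2:**
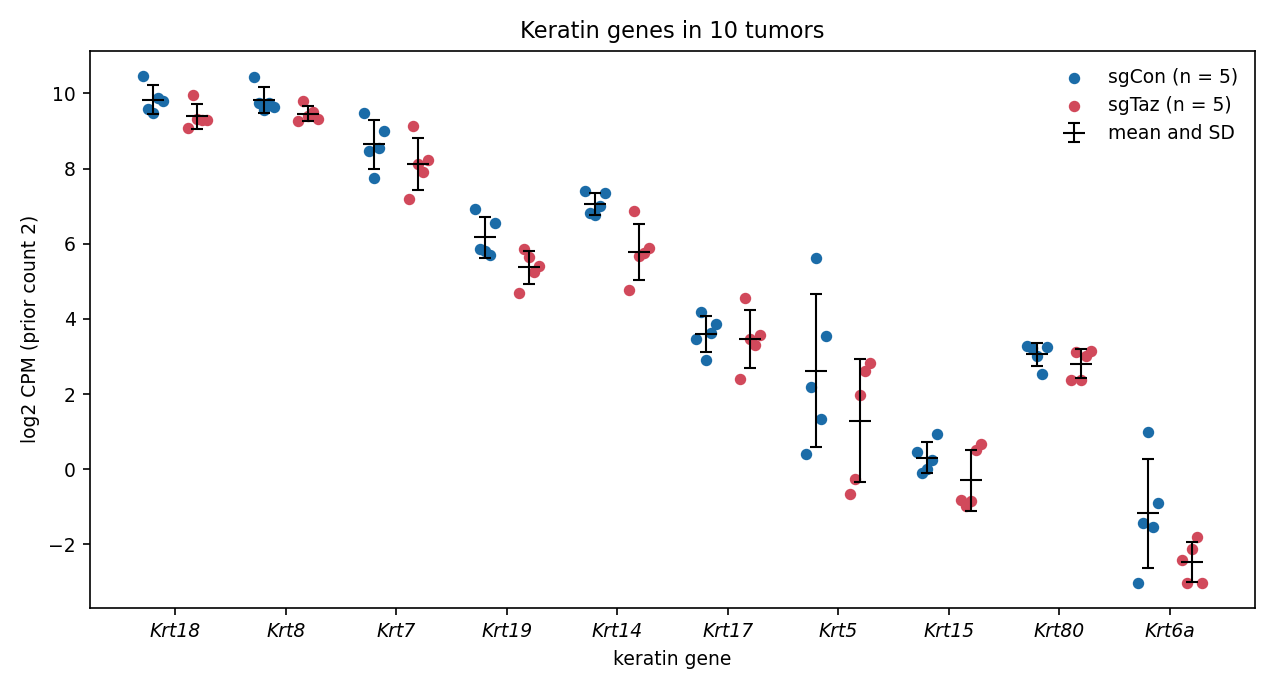
Log2 CPM (prior count 2) of each keratin in the 5 sgCon tumors (blue) and 5 sgTaz tumors (red), points in the order of tumor numbers, with the mean and SD in black. Krt14 shows the clearest shift, with 4 sgTaz points below all sgCon points, and Krt17 shows full overlap.

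Of the basal keratins, Krt14, the type I keratin of basal and myoepithelial cells, differed most in relation to its error. It was at 169.2, 112.8, 109.3, 127.9 and 162.8 CPM in sgCon tumors 1 to 5 and at 27.2, 117.7, 50.5, 53.3 and 58.6 CPM in sgTaz tumors 1 to 5. The 4 sgTaz tumors other than tumor 2 had at most 58.6 CPM, where the lowest sgCon tumor had 109.3 CPM, and sgTaz tumor 2 lay within the sgCon range. The mean was 136.4 ± 28.0 CPM (SD, n = 5) in sgCon and 61.5 ± 33.6 CPM (SD, n = 5) in sgTaz tumors. The log2 fold change was -1.15 (SE 0.31, p = 0.00331, adjusted p = 0.10, edgeR's quasi-likelihood test; exact permutation test, p = 0.0238). It stayed between -1.53 and -0.96 with each tumor left out in turn. Krt14 passed the threshold with DESeq2 (adjusted p = 0.00837), with limma-voom (adjusted p = 0.0210) and in edgeR without sgTaz tumor 2 (log2 fold change -1.53, adjusted p = 0.0286, in a fit that called 0.233% of genes as lower), and over all alternatives its adjusted p lay between 0.00837 and 0.244. Of its 50-base stretches 13.9% occur in Krt16 and Krt17, which were far less abundant here, Krt16 at 0.990 ± 0.342 CPM (SD, n = 5) in sgCon and 0.561 ± 0.360 CPM in sgTaz tumors.

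Krt5, the usual type II partner of Krt14, was low and uneven. Its values were 1.20, 4.46, 48.7, 2.39 and 11.6 CPM in sgCon and 0.509, 0.71, 3.80, 5.99 and 6.91 CPM in sgTaz tumors. The sgCon mean rested on tumor 3, and the groups overlapped. The log2 fold change of -1.94 (SE 0.99, adjusted p = 0.278, edgeR, and p = 0.286, exact permutation test) became -0.45 (adjusted p = 0.787) without sgCon tumor 3, and was -0.51 with limma-voom. Without sgTaz tumor 5 it was -2.32 (SE 1.10, adjusted p = 0.269, edgeR). Krt14 exceeded Krt5 in CPM in all 10 tumors, by between 1.16 and 7.14 on the log2 scale, and the 2 lengths differ little (1758 and 2197 bases of exon). sgCon tumor 3 also had the highest sum of the 7 lymph node stroma genes, 495.5 CPM against 30.4 to 170.0 CPM in the other sgCon tumors, and 61.3 CPM over the 8 milk and hormone receptor genes of the table, where the other sgCon tumors had 26.1 to 48.4 CPM. sgTaz tumor 5 had the highest Krt5 of its group and the highest lymph node stroma sum, 308.7 CPM against 3.50 to 6.23 CPM in the other sgTaz tumors. Dsc3 was at 11.35 CPM in it and at 0 to 0.081 CPM in the others. Both sgCon tumor 3 and sgTaz tumor 5 had the highest B cell sum of their group. Some sums did not follow Krt5. sgTaz tumor 4, with Krt5 at 5.99 CPM, had 6.23 CPM over the lymph node stroma genes. sgTaz tumor 3 had 63.1 CPM over the 8 milk and hormone receptor genes with Krt5 at 3.80 CPM. The largest parts of that sum were Esr1 (24.75 CPM) and Prlr (22.88 CPM). The myoepithelial and smooth muscle sum of sgCon tumor 3, 126.1 CPM, was the lowest of its group. Single genes went both ways in sgCon tumor 3. Csn2 (6.24 CPM), Lgals7 (39.05 CPM), Dsc3 (30.5 CPM) and Col17a1 (6.3 CPM) had their highest value of all tumors there. Acta2 (39.24 CPM), Cnn1 (2.37 CPM) and Trp63 (4.55 CPM) had their lowest value of the sgCon tumors. The part of adjoining normal gland or lymph node tissue in the Krt5 value was not tested.

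Krt17, the type I keratin of activated epithelium, was at 10.99, 18.1, 7.36, 12.2 and 14.4 CPM in sgCon and at 5.16, 23.4, 10.8, 9.71 and 11.8 CPM in sgTaz tumors. Its lowest and its highest value were both in sgTaz tumors, 1 and 2. The log2 fold change was -0.05 (SE 0.35, adjusted p = 0.949, edgeR; exact permutation test, p = 0.706). Krt15, a basal keratin linked to progenitor cells of hair follicles, had only 6 to 26 counts in a tumor, with 1.15 ± 0.39 CPM (SD, n = 5) in sgCon and 0.802 ± 0.526 CPM in sgTaz tumors. A log2 fold change of -0.54 (SE 0.43, adjusted p = 0.480, edgeR) was within the spread, with sgTaz tumors 4 and 5 at 1.30 and 1.46 CPM and sgTaz tumors 1 to 3 between 0.388 and 0.446 CPM. Without sgTaz tumor 5 it was -0.88 (SE 0.43, adjusted p = 0.283, edgeR).

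Krt6a, the type II keratin of wounded epithelium, was near the floor. It had 0, 5, 30, 4 and 6 counts in sgCon tumors and 1, 0, 2, 2 and 0 counts in sgTaz tumors, so that it fell below the filter on low counts and was not tested in the main fit. Without a filter its log2 fold change was -2.87 (SE 1.08, adjusted p = 0.176, edgeR). The exact permutation test gave p = 0.0873. Both rest on counts near the floor. All sgTaz tumors were below 3 counts, and 30 of the sgCon counts came from tumor 3, the tumor with the highest Krt5. The assignment of these reads is uncertain, since 57.2% of the 50-base stretches of Krt6a occur in other genes, Krt6b first. Krt80, a type II keratin found next to cell junctions, was at 8.35 ± 1.64 CPM (SD, n = 5) in sgCon and 7.08 ± 1.83 CPM (SD, n = 5) in sgTaz tumors. This difference, -0.24 on the log2 scale (SE 0.21, adjusted p = 0.536, edgeR; exact permutation test, p = 0.206), did not exceed the spread.

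Counted together, 9 of the 10 members passed the filter and 9 had a log2 fold change below 0, with a median of -0.51. Over all 14816 genes tested, 53% were below 0 and the median was -0.02. With edgeR, 0 members had an adjusted p below 0.05, where the test called 0% of all genes as lower and 0.00675% as higher. At an unadjusted p below 0.05, 4 members (Krt8, Krt14, Krt18 and Krt19) were lower and 0 higher, against 11.9% and 9.86% of all genes. Without sgTaz tumor 1, 3, 4 or 5, Krt14 and Krt19 stayed below that p, while Krt8 and Krt18 had an unadjusted p between 0.0645 and 0.108 (edgeR). Their log2 fold changes in these fits were between -0.43 and -0.34. The share of all genes below that p in these fits is not given here, so the change is not read as a trait of keratins. DESeq2 called 2 members as lower, Krt14 and Krt19, against 3.62% of genes, and 0 as higher, against 3.6%. limma-voom called 1 as lower, Krt14, against 5.8%, and 0 as higher, against 4.63%. In 4 members at least 4 sgTaz tumors were below every sgCon tumor, which held for 9.43% of genes, and in 0 members the groups did not overlap, against 2.13%. All 4 luminal keratins and all 4 basal keratins were below 0, with medians of -0.48 and -0.85. The exception that prevented a full separation for Krt8, Krt14, Krt18 and Krt19 was in each case sgTaz tumor 2. Its Wwtr1 level of 103.7 CPM lay between those of the other sgTaz tumors. As RNA of a whole tumor, that level does not show whether its tumor cells had lost TAZ.

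The keratins were then set against other epithelial genes of the same tumors. The epithelial score was the mean log2 CPM of 21 epithelial genes that are no keratins, such as Epcam, Cdh1 (E-cadherin) and the claudins. It was 5.65, 4.95, 4.32, 5.24 and 5.34 in sgCon and 4.26, 5.52, 4.57, 4.49 and 4.96 in sgTaz tumors, so that sgTaz tumor 2 had the second highest and sgTaz tumor 1 the lowest score of all. Of the 21 genes, 18 were below 0 in log2 fold change, with a median of -0.30 (-0.14 without sgCon tumor 1, -0.18 without sgTaz tumor 1 and -0.60 without sgTaz tumor 2), and 1, Cdh1, had an unadjusted p below 0.05 (log2 fold change -0.72, SE 0.32, adjusted p = 0.216, edgeR). Over all genes tested, 11.9% were lower and 9.86% higher at an unadjusted p below 0.05. Epcam had a log2 fold change of -0.33 (SE 0.47).

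With the epithelial score as a term in the edgeR fit, the difference of Krt7 went from -0.51 to -0.09 (SE 0.12) and those of Krt8 and Krt18 to -0.23 each (SE 0.14 and 0.12). That of Krt14 was -0.95 (SE 0.18, adjusted p = 0.0937), that of Krt19 -0.57 (SE 0.20, adjusted p = 0.144) and that of Krt5 -1.95 (SE 0.82, adjusted p = 0.199). Krt17 was at 0.15 (SE 0.26). At equal score, 0 members passed the adjusted test, where 0% of genes were called in either direction, and 3 (Krt5, Krt14 and Krt19) were lower and 0 higher by unadjusted p below 0.05, against 12.5% and 9.62% of genes. Without sgCon tumor 3, Krt14 was at -0.65 and Krt5 at -0.91, and of Krt5, Krt14 and Krt19 only Krt14 kept an unadjusted p below 0.05. Only Krt14 kept it without sgTaz tumor 2 as well. The share of all genes below that p in these fits is not given here, so the change is not read as a trait of keratins. Without sgTaz tumor 5, Krt14 passed at equal score (log2 fold change -0.92, adjusted p = 0.0315), in a fit that called 3.86% of genes as lower. Krt5 was at -2.75 (SE 0.84, adjusted p = 0.0928) in that fit. As a description, the log2 CPM of Krt14 less the epithelial score was 1.76, 1.87, 2.46, 1.76 and 2.01 in sgCon tumors. It was 0.52, 1.36, 1.09, 1.25 and 0.92 in sgTaz tumors. On this scale all 5 sgTaz tumors, tumor 2 included, were below all 5 sgCon tumors, which held for 1 of the 9 members and for 0.0945% of all genes tested. Without the score that share of genes was 2.13%. The score itself was 0.34 lower in sgTaz tumors, with an SD of 0.50 in sgCon and 0.49 in sgTaz tumors. Subtracting it thus raises sgTaz values and adds spread to genes that do not follow it. The 0.0945% is therefore no measure of how rare the Krt14 pattern is. For Krt8, log2 CPM less the score had means of 4.72 ± 0.36 and 4.70 ± 0.36 (SD, n = 5), and the groups overlapped.

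**Figure D3:**
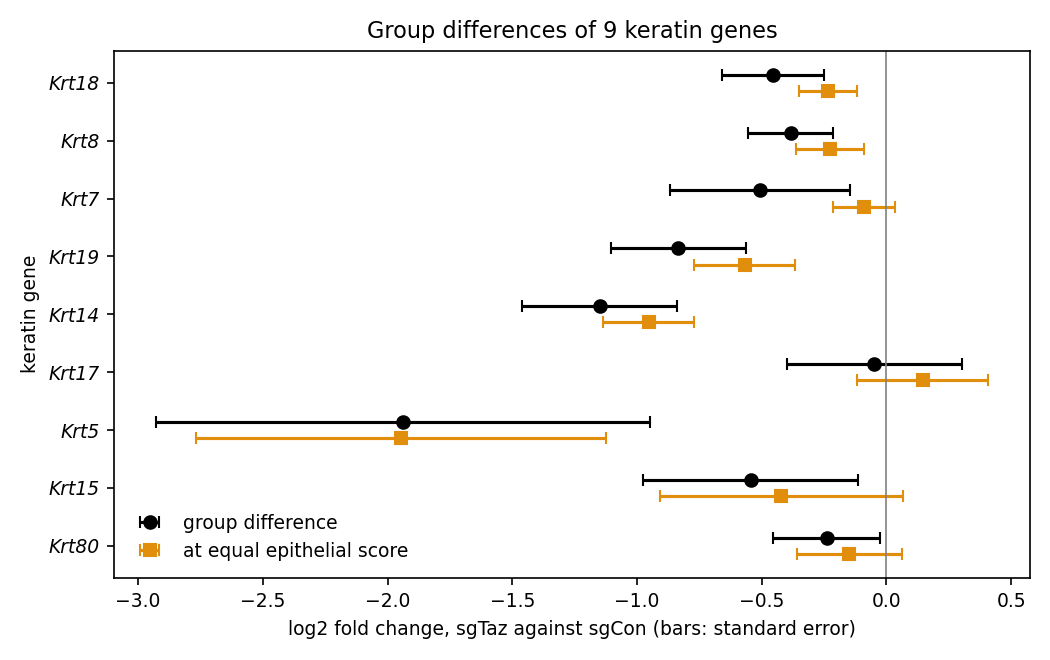
Log2 fold change of 9 keratins, sgTaz against sgCon, with its standard error, from the group comparison (black circles) and at equal epithelial score (orange squares). The value of Krt7 moves from -0.51 to -0.09, while that of Krt14 moves from -1.15 to -0.95.

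**Figure D4:**
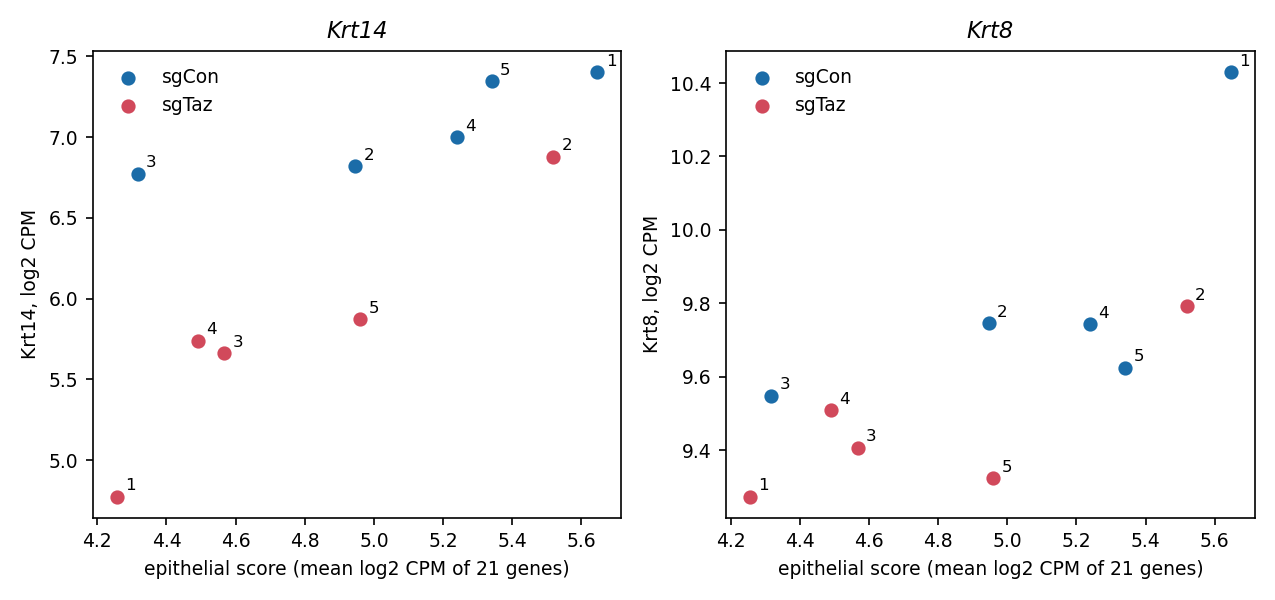
Log2 CPM of Krt14 (left) and Krt8 (right) against the epithelial score of each tumor, with tumor numbers beside the points. At a like score the sgTaz tumors have less Krt14 than the sgCon tumors, and sgTaz tumor 2 has the highest score of its group.

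Partner keratins were compared within tumors. The log2 ratio of Krt8 to Krt18 in CPM stayed between -0.17 and 0.23 in all 10 tumors. After the group means were taken off, Krt8 and Krt18 had a Pearson's r of 0.919 over the 10 tumors (permutation within groups, p = 0.00417, adjusted p = 0.0104 over 5 pairs) and a Spearman's rho of 0.624 (permutation p = 0.0809, adjusted p = 0.201). With the 2 tumors farthest from the Krt8 median left out, r was 0.826. Krt7 and Krt19 had an r of 0.882 (permutation p = 0.00188, adjusted p = 0.00938), a rho of 0.891 (permutation p = 0.00215, adjusted p = 0.0108) and an r of 0.730 with the 2 farthest from the Krt7 median left out. Krt14 and Krt5, the basal partners, had an r of -0.11 (permutation p = 0.796, adjusted p = 0.796; rho = -0.19, permutation p = 0.625, adjusted p = 0.625), and -0.62 without the 2 farthest tumors. Krt14 and Krt15 had an r of 0.12 (permutation p = 0.722, adjusted p = 0.796; rho = 0.26, permutation p = 0.538, adjusted p = 0.625), and -0.42 without 2 tumors. The pair of Krt6a and Krt17 could not be computed, since Krt6a was below the filter.

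Krt14 and Krt17, both type I keratins of basal and activated cells, had an r of 0.816 (permutation p = 0.0368, adjusted p = 0.0613), a rho of 0.564 (permutation p = 0.121, adjusted p = 0.201) and an r of 0.641 without 2 tumors. Split by group, r was 0.156 over the 5 sgCon and 0.994 over the 5 sgTaz tumors, so that the joint value rested on the sgTaz tumors. The relation was not particular to basal keratins. Over the 10 tumors, with the group means taken off, Krt14 had an r of 0.901 with Krt7, 0.795 with Krt18, 0.784 with Krt19 and 0.607 with Krt8. These pairs were not tested. The ratio of Krt14 to Krt17 separated the groups. The log2 ratio of Krt14 to Krt17 in CPM was 3.93, 2.63, 3.87, 3.38 and 3.49 in sgCon tumors. In sgTaz tumors it was 2.37, 2.33, 2.21, 2.44 and 2.30, a narrow range below every sgCon value. With Krt17 as the divisor, 0.142% of all genes tested separated the groups in this direction. Krt17 itself ranged from 5.16 to 23.4 CPM, and dividing by it adds that spread to genes that do not follow it. The share is therefore no measure of how rare the Krt14 pattern is. The mean log2 ratio of Krt14 to Krt17 was 3.46 ± 0.52 (SD, n = 5) in sgCon and 2.33 ± 0.09 (SD, n = 5) in sgTaz tumors. The ratio was computed with the values of both genes known and is a description without a test. That of Krt14 to Krt8 was -2.75 ± 0.29 and -3.68 ± 0.58 (SD, n = 5), with sgTaz tumor 2 at -2.91 within the sgCon range.

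**Figure D5:**
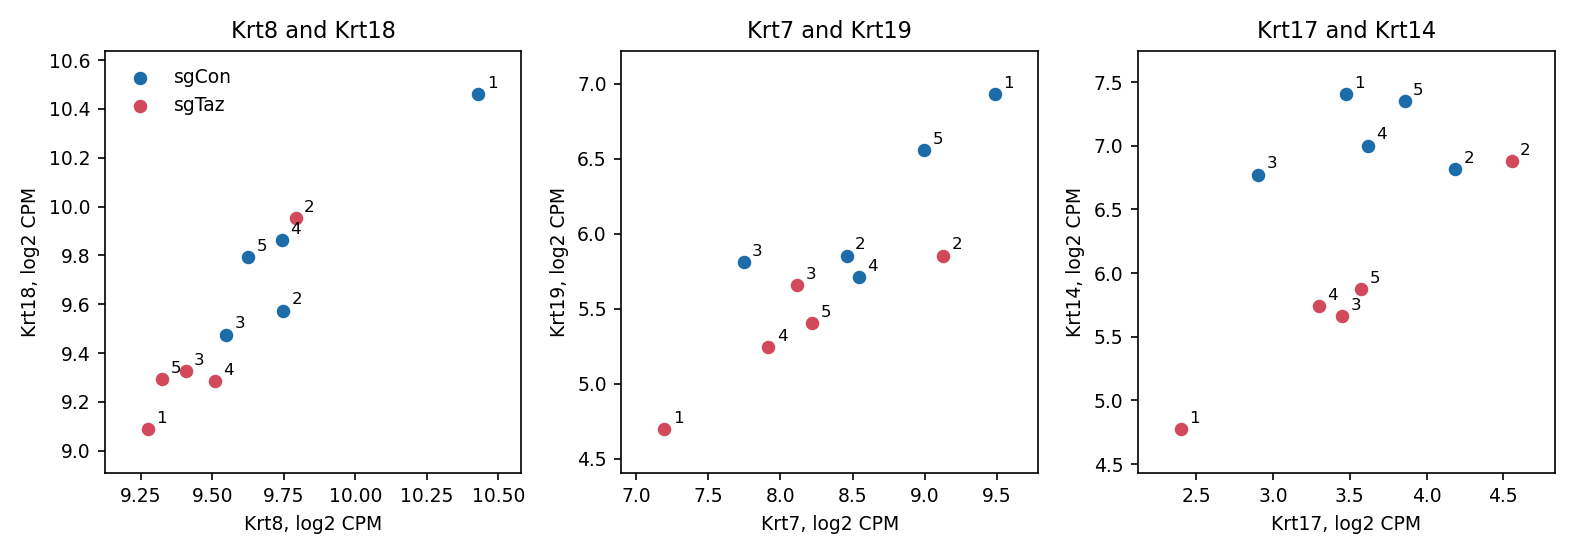
Log2 CPM of Krt8 and Krt18, of Krt7 and Krt19, and of Krt17 and Krt14 in each tumor, sgCon in blue and sgTaz in red, with tumor numbers. In the first 2 panels both groups follow 1 rising trend, and in the third the sgTaz tumors lie along a line below the sgCon tumors.

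Among 14057 genes with a mean of at least 1 CPM, the 5 most like Krt8 within groups were Tmtc4 (r = 0.961), Atat1 (r = 0.938), Myl12b (r = 0.931), Fndc3a (r = 0.931) and Baiap2 (r = 0.929), all over 10 tumors, and Krt18 came at rank 10 with members counted in. Their log2 fold changes were between -0.05 and 0.32, against -0.38 for Krt8, with Tmtc4 at 0.32 (SE 0.11, adjusted p = 0.139, edgeR). The 5 most like Krt14 were Msln (mesothelin, r = 0.995), Ephb6 (r = 0.985), Nfyb (r = 0.978), Prss22 (r = 0.976) and Sult2b1 (r = 0.972). The log2 fold changes of these last 5 were between -1.06 and -0.09, and none had an unadjusted p below 0.05. The correlations are over the same 10 libraries and are descriptions.

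Genes of the structures that hold keratin filaments were then examined. Of 18 genes of desmosomes, hemidesmosomes and keratin linkers, 17 were tested, 9 were below and 8 above 0 in log2 fold change, with a median of -0.10 that was 0.02 without sgCon tumor 1. The adjusted test of edgeR called 0 of them, and 0% of all genes as lower and 0.00675% as higher. Without sgTaz tumor 5, 1 gene of the list passed it as lower, in a fit whose share of all genes called is not given here. With all tumors, an unadjusted p below 0.05 was found for 2 lower and 3 higher genes, against 11.9% and 9.86% of all genes. Dsp, desmoplakin, which ties keratins to desmosomes, was at 80.6 ± 26.7 CPM (SD, n = 5) in sgCon and 47.2 ± 21.5 CPM in sgTaz tumors, with a log2 fold change of -0.77 (SE 0.31, adjusted p = 0.190, edgeR). Dst, whose products include the hemidesmosome linker BPAG1e as well as forms of other tissues, was at 346.3 ± 84.9 CPM (SD, n = 5) and 520.0 ± 73.2 CPM, with a log2 fold change of 0.59 (SE 0.16, adjusted p = 0.101, edgeR; adjusted p = 0.0124, DESeq2). Evpl, envoplakin, a linker of the cornified envelope, had a log2 fold change of 0.55 (SE 0.22, adjusted p = 0.192, edgeR). The smallest p of the list belonged to these 3 genes.

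Of 12 transcription factors of epithelium, 11 were tested, 5 were below and 6 above 0, with a median of 0.07 that was below 0 without sgTaz tumor 2 (-0.06) or 4 (-0.04). The adjusted test of edgeR called 0 of them, where it called 0% of all genes as lower and 0.00675% as higher. Trp63, which encodes the basal cell factor p63, was at 6.15 ± 1.76 CPM (SD, n = 5) in sgCon and 5.28 ± 1.27 CPM in sgTaz tumors, with a log2 fold change of -0.22 (SE 0.24, adjusted p = 0.618, edgeR). Tfap2c had the smallest p of the list (log2 fold change 1.37, SE 0.49, adjusted p = 0.155, edgeR), with 15.2 CPM in sgTaz tumor 1 and 2.58 to 3.697 CPM in the other sgTaz tumors. Of 8 other intermediate filament genes tested, of 12 in the list, 4 were lower and 4 higher, with a median of 0.00. Vim, the filament of mesenchymal cells, was at 2013 ± 247 CPM (SD, n = 5) and 2108 ± 219 CPM, with a log2 fold change of 0.07 (SE 0.11, adjusted p = 0.740, edgeR). Des, the filament of muscle, had a log2 fold change of -1.23 (SE 0.44, adjusted p = 0.154, edgeR).

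Markers of cornified epidermis were checked because skin carries Krt5, Krt14, Krt15 and Krt6a. Of 18 such genes, 9 were in the table and 3 were tested, while the other 9, with Krt1, Krt2, Ivl and Flg among them, were not analysed here. Summed over those in the table, the level was 46.5 to 72.4 CPM in sgCon and 15.7 to 49.1 CPM in sgTaz tumors, most of it from Sfn. Sfn, which encodes 14-3-3 sigma of epithelial cells in general, was at 47.0 ± 12.3 CPM (SD, n = 5) in sgCon and 20.2 ± 12.6 CPM in sgTaz tumors, with a log2 fold change of -1.22 (SE 0.35, adjusted p = 0.105, edgeR; adjusted p = 0.0128, DESeq2). Krt10, the type I keratin of that layer, which also counts among the other keratins below, was at 3.49 ± 0.84 CPM (SD, n = 5) and 3.26 ± 0.65 CPM. Of 11 keratins outside the 10 members, 4 were tested, and 0 had an unadjusted p below 0.05, against 11.9% of all genes as lower and 9.86% as higher. Krt16, a stress keratin and partner of Krt6a, had a log2 fold change of -0.80 (SE 0.44, adjusted p = 0.314, edgeR), Krt20 of -0.36 (SE 0.40), Krt23 of 0.36 (SE 0.57) and Krt10 of -0.10 (SE 0.22).

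Other cells of the tumor were compared in the same fit. Of these lists 0 genes passed the adjusted test of edgeR, which called 0% of all genes as lower and 0.00675% as higher. Without sgTaz tumor 5, 6 of the 7 B cell genes and 3 lymph node stroma genes passed it as lower. That tumor was set apart above by its sum over the same 7 B cell genes. The calls without it, and the medians without it below, follow from that choice and are no independent support. The share of all genes called in that fit is not given here. DESeq2 called 3 macrophage genes as higher, Adgre1 (adjusted p = 0.0175), Csf1r (adjusted p = 0.0151) and Mrc1 (adjusted p = 0.0358), and 1 fibroblast gene, Pdgfra (adjusted p = 0.00225). Of 8 myoepithelial and smooth muscle genes, which normal mammary basal cells share with Krt5 and Krt14, 6 were below 0, with a median of -0.35 (-0.13 without sgTaz tumor 1, -0.60 without sgTaz tumor 2) and summed levels of 126.1 to 182.3 CPM in sgCon and 102.9 to 165.3 CPM in sgTaz tumors. Lgals7, galectin-7 of stratified and basal epithelium, had a log2 fold change of -1.03 (SE 0.49), and no gene of this list other than Mylk (0.55, SE 0.21, adjusted p = 0.167, edgeR) had an unadjusted p below 0.05. Of 4 milk and hormone receptor genes tested, 4 were above 0, with a median of 0.12 that turned to -0.30 without sgTaz tumor 3, -0.12 without sgCon tumor 4 and -0.04 without sgCon tumor 1, and was 0.50 without sgCon tumor 3. Of 7 macrophage genes, 7 were above 0, with a median of 0.49 and summed levels of 745.6 to 1765 CPM in sgCon and 1458 to 2054 CPM in sgTaz tumors, and of 10 fibroblast genes 8 were above 0. The fibroblast median of 0.14 turned to -0.06 without sgTaz tumor 5 and -0.02 without sgTaz tumor 4, and was 0.33 without sgTaz tumor 1. Of 5 endothelial genes 4 were above 0, with a median of 0.14, and of 6 adipocyte genes 6, with a median of 1.32 and summed levels of 53.0 to 102.3 and 36.5 to 197.3 CPM. Of 7 B cell genes 7 were below 0, with a median of -3.14, which was -5.89 without sgTaz tumor 5, and of 5 lymph node stroma genes 4, with a median of -1.87 and -7.17 without that tumor. Of 3 skeletal muscle genes 2 were below 0, with a median of -0.52. Each gene of these lists that the table holds had counts in at least 1 tumor. Whether the share of these cells had a part in the keratin values was not tested, apart from the fit at equal epithelial score.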

How the data were processed

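RNA-seq counts of 10 tumors were used. The authors aligned reads with STAR to mm10, counted them per GENCODE gene with featureCounts (Subread) and deposited these counts as whole numbers without normalization. Tool versions and the strand setting are not given in the sources used here. Without strand, reads of Krt5, Krt6a, Krt7, Krt8 and Krt80 cannot be told apart from those of transcripts that overlap them on the other strand (77 to 600 exon bases). The table also holds 5 columns of other samples, which were not used. Columns were assigned by their names.

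Of 17864 identifiers, 17860 matched GENCODE M21. Tests used R 4.3.3 with edgeR 4.0.16 (TMM, filterByExpr by group, glmQLFit, glmQLFTest, Benjamini-Hochberg over 14816 genes, threshold 0.05); DESeq2 1.42.0 and limma 3.58.1 (voom with sample quality weights) were alternatives. A standard error is the log2 fold change over the square root of F. Log2 CPM used a prior count of 2. Exact two-sided permutation tests of 5 against 5 tumors cannot go below p = 0.00794; Python 3.11.15 with scipy 1.17.1, numpy 2.4.6 and pandas 2.3.3 ran these. Relations used all permutations within groups. Scripts were tested on simulated data.

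The members, lists and tests were chosen with earlier results of these data known. Named are all members, Wwtr1, Yap1, keratins past the filter, up to 3 genes of smallest p per list, Epcam, Cdh1, Vim, Trp63, Dsp, and the 5 genes most like Krt8 and Krt14. Krt1, Krt2, Ivl and Flg, without a row, were named after that was seen. Csn2, Prlr, Dsc3, Col17a1 and Acta2 were named after their values were seen. Alternatives were DESeq2, limma-voom, RLE and upper-quartile normalization, no filter, at least 10 counts in every tumor, each tumor left out, the replicate number as a block, the median in place of the mean score, a prior count of 0.5 and the length of the principal transcript. Tumors of a group differed by more than sampling noise (lowest chi-square per gene 6.16).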

Additional observations from a re-analysis of the deposited data

Results flagged for a closer look

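In 2 of 22 groups of 5 tumors, where chance gives 1.1, 1 tumor was set apart from the remaining 4 by a wide gap. The log2 CPM of Krt8 in sgCon tumor 1 was 10.43, with the other sgCon tumors between 9.55 and 9.75; this tumor also had the highest epithelial score, 5.65. The log2 CPM of Krt18 in sgTaz tumor 2 was 9.95, where the remaining sgTaz values ran from 9.09 to 9.33; its epithelial score of 5.52 was the highest of the sgTaz tumors.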

How the results depend on the processing

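The number of members called as lower depended on the test and on a few tumors. It was 0 with edgeR, with RLE size factors, with upper-quartile normalization, without a filter and with at least 10 counts in every tumor, 2 with DESeq2 (Krt14 and Krt19) and 1 with limma-voom (Krt14). With each tumor left out it was 0 to 1, the 1 being Krt14 without sgTaz tumor 2, and at equal epithelial score also 0 to 1, Krt14 without sgTaz tumor 5. The replicate numbers are not described as a pairing, and no pairing was seen. The correlations of deviations of same-numbered tumors were between -0.24 and 0.22, and 1 of 5 sgCon tumors correlated best with its own number. So few tumors cannot exclude a pairing. With the replicate number as a block, 0 members passed, at equal score too, and 2 members (Krt14 and Krt19) had an unadjusted p below 0.05 in place of 4, against 9.44% of genes.

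The sign of Krt17, whose log2 fold change was -0.05, was not stable: it was 0.12 without sgCon tumor 2, 0.0018 without sgCon tumor 5, 0.15 without sgTaz tumor 1 and 0.021 without sgTaz tumor 4, and ranged from -0.43 to 0.15 with any tumor left out. At equal score it ranged from -0.11 (without sgTaz tumor 2) to 0.39, and Krt15 from -0.82 to 0.077 (without sgTaz tumor 2). The causes were not tested. With a tumor left out, r ranged from 0.86 to 0.94 for Krt8 and Krt18, from 0.83 to 0.93 for Krt7 and Krt19, from 0.63 to 0.95 for Krt14 and Krt17 (below an adjusted p of 0.05 without sgCon tumor 1 or 2), from -0.62 to 0.24 for Krt5 and Krt14, and from -0.16 to 0.73 for Krt14 and Krt15 (0.73 without sgTaz tumor 2). Scalings moved the median log2 fold change of all genes by at most 0.013. With 0 to 30 counts, Krt6a entered only the fit without a filter, and Krt15 rests on 6 to 26 counts.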
